A study of Nothobranchius furzeri with 42 samples.

Results

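Spleens of alendronate-treated and placebo-treated African turquoise killifish (Nothobranchius furzeri) were compared here across all genes of a deposited count table. The members are the 8 libraries labelled spleen out of 42 libraries in the series, 5 from fish that received alendronate and 3 from fish that received placebo. All fish were females of the short-lived GRZ strain kept at 28 °C. The treated fish had 10 µM alendronate in the system water for 3 weeks from 16 weeks of age, and the placebo fish had the same amount of distilled water. All were sampled at 19 weeks. The series also holds heart, liver, kidney and caudal fin muscle from the same fish. Fish are named by arm and by the number in their label. Spleen libraries came from alendronate fish 1 to 5 and from placebo fish 2, 3 and 4. How the fish were spread over tanks is not stated, so treatment and tank cannot be told apart.

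The spleen of a bony fish filters the blood, holds red cells and houses macrophages and lymphocytes. Most blood cells of these animals are formed in the kidney, whose haematopoietic tissue takes the place of bone marrow. Alendronate, a nitrogen-containing bisphosphonate, attaches to bone mineral and blocks farnesyl diphosphate synthase, an enzyme of the mevalonate pathway that supplies lipid anchors for small GTPases. Its best known target cell is the osteoclast, which belongs to the same lineage as macrophages. The series title names survival and bone, and the labels give no separate question for the spleen.

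Total counts per spleen library ran from 20898321 to 27004620, and between 20339 and 21464 of the 25475 genes had at least 1 read. Each of the 8 libraries was most like another spleen library among all 42. The table lists Ensembl gene IDs without names, and 0 of them matched the gene table at hand. Cell type markers and pathway lists could therefore not be read, so the labelled tissue was not checked against named markers. Genes are described below by the tissues in which they were abundant, and only a few are given by ID.

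Liver transcripts were present in the spleen libraries in very unequal amounts. The liver share of a spleen library was estimated from 142 liver markers. These genes averaged 20 CPM or more (counts scaled to a common library total) in liver and reached at least 100 times their mean in each of heart, muscle and kidney. The spleen libraries were not used to choose them. Their summed share of the spleen counts was divided by their summed share of the same fish's liver counts, which averaged 58.1% over all liver libraries. The estimate reads every marker transcript in spleen as coming from liver, which is not known.

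With alendronate, the liver share was 18.8% in fish 1, 0.265% in fish 2, 9.15% in fish 3, 0.720% in fish 4 and 3.18% in fish 5. With placebo it was 2.17% in fish 2, 2.69% in fish 3 and 0.558% in fish 4. Alendronate fish 1, 3 and 5 lay above every placebo fish, alendronate fish 2 lay below all of them, and the arms overlapped. The order depended on the markers. With 268 markers at 10 times the other tissues, placebo fish 2 stood at 11.4%, above alendronate fish 3 at 10.6% and below alendronate fish 1 at 29.5%. The means were 6.41% ± 7.75 (SD, n = 5) and 1.81% ± 1.11 (SD, n = 3), and they differed by 4.61 percentage points (two-sided exact permutation p = 0.375). The smallest p this design allows is 0.0179. Without alendronate fish 1 the difference was 1.52 percentage points.

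**Figure D1:**
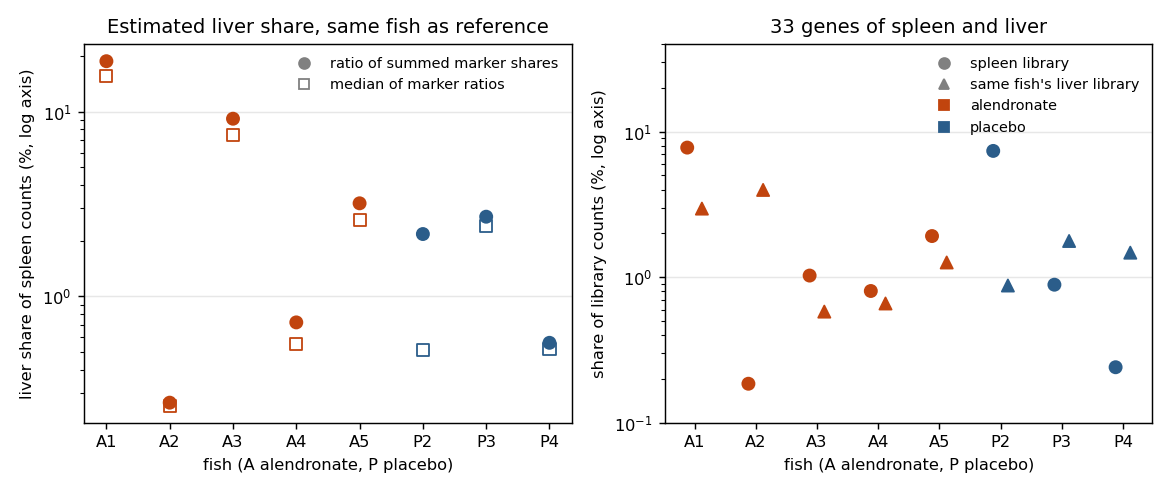
Left, estimated liver share of each spleen library in percent on a log axis, from the ratio of summed marker shares (filled circles) and from the median of the marker ratios (open squares). Right, share of library counts in percent on a log axis of 33 genes found in spleen and liver, in the spleen library (circles) and in the same fish's liver library (triangles). A is alendronate and P placebo, each point is 1 library, and P2 is where the 2 estimates on the left lie farthest apart, at 2.17% and 0.509%.

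The median of the single marker ratios gave a second estimate that abundant markers sway less. It was 15.5% in alendronate fish 1, with quartiles at 13.6% and 17.8%, and 7.45% in alendronate fish 3, with quartiles at 6.50% and 9.06%. In placebo fish 2 it was 0.509%, far below the 2.17% from the sums. A few markers of that library were thus much higher than the rest. In placebo fish 2, 9 markers were more abundant in spleen than in the same fish's liver, against 8 in alendronate fish 1, 8 in alendronate fish 3, 6 in alendronate fish 5, 1 in alendronate fish 4 and 0 in the other 3 fish.

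The most abundant liver marker, ENSNFUG00015025346, was chosen for display after its values were seen. It stood at 21399 CPM in the spleen of alendronate fish 1 and at 135363 CPM in that fish's liver, a ratio of 15.8%. In alendronate fish 2 the spleen value was 560 CPM and the ratio 0.292%. In alendronate fish 3 the ratio was 8.74%, in alendronate fish 4 0.389% and in alendronate fish 5 2.95%. With placebo the ratios were 0.429% in fish 2, 2.55% in fish 3 and 0.519% in fish 4. This single gene put the 8 libraries in the same order as the median ratio did, except that alendronate fish 4 and placebo fish 2 and 4 changed places among themselves.

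The liver transcripts of a spleen library were also compared with the liver of every fish. For each of 9 liver libraries, the spread of the log2 ratio of spleen to liver was taken over markers with at least 20 spleen reads, as the median absolute deviation. The same fish's liver gave the smallest spread of the 9 for alendronate fish 1, 3, 4 and 5 and for placebo fish 4. It came second for placebo fish 2 and 3 and seventh for alendronate fish 2, the library with the smallest liver share. In alendronate fish 1 the spread was 0.20 against its own liver and had a median of 0.47 against the other livers, over 141 markers. In alendronate fish 3 the values were 0.23 and 0.40, again over 141 markers.

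A second group of genes also varied between spleen libraries. It holds 33 genes that averaged 5 CPM or more in spleen, with a spleen mean at least as high as the liver mean, and levels in both at least 10 times those in heart, muscle and kidney. The limits were chosen after the values of some members had been seen, so the group is described without a test. These genes took 7.77% of the spleen counts in alendronate fish 1, 0.185% in fish 2, 1.03% in fish 3, 0.804% in fish 4 and 1.92% in fish 5. With placebo they took 7.37% in fish 2, 0.888% in fish 3 and 0.241% in fish 4. One library of each arm was therefore far above the others, and the arms overlapped over their whole range.

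The 33 genes moved together. The median Pearson r between 2 members over the 8 libraries was 0.990 on log2 CPM, a description over libraries that share the same genes and totals. In 5 of the 8 libraries most of these genes were higher in spleen than in the same fish's liver. The genes were chosen by a spleen mean at least as high as the liver mean in these libraries, which fixes this in part. In placebo fish 2 their share of counts was 8.41 times that in its own liver, and all 33 were higher in spleen. In alendronate fish 1 it was 2.62 times that in liver, again with 33 of 33 higher. In alendronate fish 3, 4 and 5 the ratio was 1.77, 1.22 and 1.52. It fell to 0.501 in placebo fish 3, 0.163 in placebo fish 4 and 0.0466 in alendronate fish 2. The fitted median log2 fold change of the group was 0.02. Leaving out alendronate fish 1 gave -1.57 and leaving out placebo fish 2 gave 2.32, so its direction rested on single libraries. Of the 33 genes, 6 are also among the 142 liver markers and 27 among the 268 markers at the lower limit, so whether they count toward the liver share depends on that limit.

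A pair of abundant genes also varied widely between libraries. ENSNFUG00015007666 and ENSNFUG00015007598, chosen for display after their values were seen, ranked next to each other among the most abundant genes by mean spleen share. Together they took 1.14% of the counts in alendronate fish 1, 12.6% in fish 2, 1.72% in fish 3, 8.26% in fish 4 and 0.741% in fish 5. With placebo they took 2.02% in fish 2, 3.77% in fish 3 and 2.02% in fish 4. Alendronate fish 2 and 4 were the highest and alendronate fish 5 the lowest. The ratio of one gene's share to the other's stayed between 0.901 and 1.21 in all 8 libraries. Both were detected in the other tissues too, at a mean of 0.210% and 0.249% of heart counts and 0.871% and 0.836% of kidney counts. Whether the pair are near-identical copies that share reads is not known from the files. Among the 103 genes that averaged 1000 CPM or more in spleen, the highest library was a median of 1.80 times the lowest. It was over 10 times the lowest for 20 genes, of which 14 were liver-enriched or among the 33 genes above.

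The arms did not separate along the main axes of variation. In a principal component analysis of log2 CPM over 15689 genes with a mean of at least 1 CPM, the first component held 49.1% of the variance and the second 14.8%. Alendronate fish 1 and 2 marked the opposite ends of the first, at 101.7 and -75.5, and all 3 placebo fish lay between them. Of the 200 genes that most raised the first component, 157 had their highest tissue mean in liver, and of the 200 that most lowered it, 87 had theirs in spleen. With the expected liver reads removed, the first component still held 41.6% of the variance and alendronate fish 1 and 2 still marked its ends. Then 120 of the 200 genes that most raised it had their highest mean in spleen, and 116 of the 200 that most lowered it had theirs in liver. With the median of the marker ratios as the share, these counts were 106 and 67. The subtraction took the most reads from alendronate fish 1, 17.2% of its counts, so it fixes these counts in part. Over all genes tested between the arms, the highest mean was in spleen for 21.1% and in liver for 24%. Alendronate fish 1 was the lowest of the 8 libraries for 24.5% of the genes and the highest for 22.9%.

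**Figure D2:**
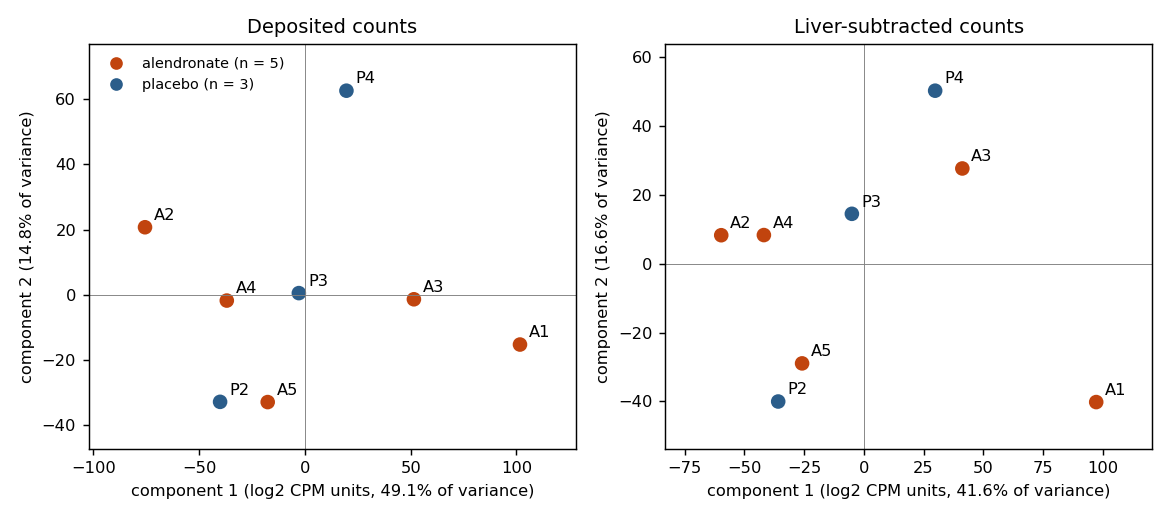
Scores of the 8 spleen libraries on the first 2 principal components of log2 CPM, before (left) and after (right) the reads expected from the same fish's liver were subtracted. Points are libraries, A for alendronate and P for placebo. A1 lies at the right end and A2 at the left end in both panels, and the first component holds 49.1% of the variance on the left and 41.6% on the right.

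No gene passed the comparison of alendronate with placebo in edgeR, while DESeq2 called 10 genes, described further on. Among the 17545 genes tested with edgeR's quasi-likelihood test, 0 had an adjusted p under 0.05 (0% of genes). The unadjusted p was under 0.05 for 285 genes, or 1.62% of those tested, where 5% would be expected if no gene differed and the p-values were uniform. Of these, 215 were lower with alendronate (1.23% of all genes) and 70 were higher (0.399%). In 156 genes every alendronate library lay below every placebo library (0.889%), and in 82 genes every alendronate library lay above (0.467%), which makes 238 genes without overlap (1.36%). The balance of directions depended on the setting. DESeq2 gave 377 higher and 260 lower genes at an unadjusted p under 0.05, and edgeR without alendronate fish 2 gave 271 and 185. Without alendronate fish 1 and 3, edgeR gave 377 higher and 752 lower genes, 1129 of 17168 in all, and still called 0. Uniform p-values would give 858 in that setting, so its number lay above this mark, unlike that of the main fit. In bulk tissue, fewer cells of a type and less RNA per cell cannot be told apart. The samples are separate fish, so the p-values measure the spread between fish.

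The gene with the smallest p was ENSNFUG00015019412, which was lower with alendronate. Its levels, in CPM after TMM scaling, were 14.0, 14.7, 10.7, 14.6 and 9.46 in alendronate fish 1 to 5. They were 25.5, 61.5 and 45.9 in placebo fish 2, 3 and 4. All 5 treated fish lay close together and below all 3 placebo fish. The means were 12.7 ± 2.44 CPM (SD, n = 5) and 44.3 ± 18.1 CPM (SD, n = 3). The fitted log2 fold change was -1.81 with a standard error of 0.29, or 3.50-fold lower with a 95% interval from 2.24 to 5.46. Its unadjusted p in edgeR was 0.000113 and its adjusted p was 1.00. The log2 change was -1.78 without alendronate fish 1 and 3 and -1.85 on liver-subtracted counts. DESeq2 gave -1.80 with an adjusted p of 0.00213. The gene was chosen for its p in these same libraries, and the 95% interval makes no allowance for that choice. The same holds for the genes below that were chosen by p.

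The same gene, ENSNFUG00015019412, was far more abundant in kidney than in spleen. On the scale of all 42 libraries its mean was 188 CPM in kidney, 16.6 CPM in spleen and 24.1 CPM in liver. In kidney it ranged from 103 to 178 CPM in the 5 alendronate fish and from 229.6 to 241 CPM in the 2 placebo fish. Those groups did not overlap. How many of all genes show no overlap in kidney was not counted. With only 2 placebo libraries, separation arises more easily there than in spleen. In heart it ranged from 15.1 to 24.0 CPM with alendronate and from 20.7 to 29.4 CPM with placebo, which overlap. These tissues came from the same fish, so they do not add independent animals.

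ENSNFUG00015012795 had the next smallest p. It stood at 10.4, 4.45, 3.82, 4.85 and 4.61 CPM in alendronate fish 1 to 5 and at 12.5, 41.7 and 39.5 CPM in placebo fish 2, 3 and 4. The groups did not overlap, but alendronate fish 1 and placebo fish 2 lay close to each other. The means were 5.63 ± 2.702 CPM (SD, n = 5) and 31.2 ± 16.3 CPM (SD, n = 3). The log2 fold change was -2.48 with a standard error of 0.44, or 5.56-fold lower (95% interval 2.79 to 11.1). The edgeR p was 0.000279 before and 1.00 after adjustment, and the DESeq2 adjusted p was 0.00237. Leaving out any 1 library moved the log2 change between -2.85 and -2.17, and it was -2.75 without alendronate fish 1 and 3. In kidney ENSNFUG00015012795 ranged from 9.21 to 23.8 CPM with alendronate and from 29.9 to 31.6 CPM in the 2 placebo fish. Those groups did not overlap, with the same limits as for ENSNFUG00015019412. In heart, at low levels, the gene ranged from 0.418 to 0.664 CPM with alendronate and from 0.698 to 2.11 CPM with placebo. The heart groups did not overlap either, and how many of all genes show this in heart was not counted. In liver and muscle the arms overlapped.

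**Figure D3:**
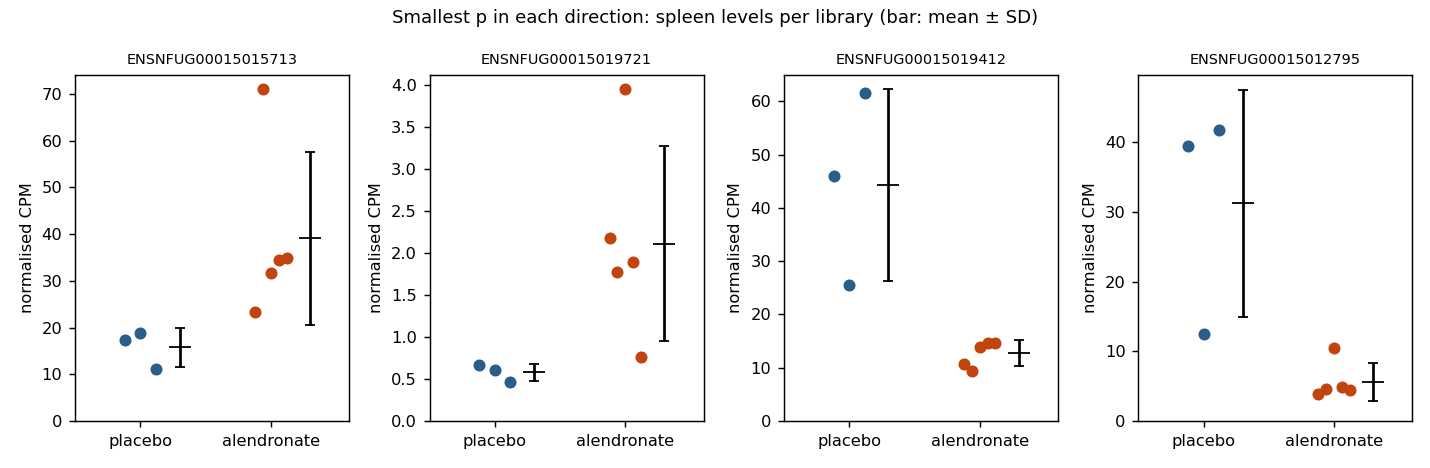
Spleen levels in TMM-scaled CPM (linear axes from 0) of the 2 genes with the smallest p among those higher with alendronate (left pair) and among those lower (right pair). Each point is 1 library, 3 placebo and 5 alendronate, and the bar beside the points is the mean ± SD. The 4 genes show no overlap between arms, against 1.36% of all tested genes, a contrast that the choice by p fixes in part. None passed adjustment in edgeR, while the 2 lower genes had DESeq2 adjusted p of 0.00213 and 0.00237.

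The other genes at the low end resembled these. The 25 genes with the smallest p among those lower with alendronate are described as a set, without a test, since the values in this comparison chose them. Their log2 changes ran from -5.95 to -0.96 and their p from 0.000113 to 0.00244. In 21 of the 25, no alendronate library reached a placebo library, against 0.889% of all genes, a contrast that the choice by p fixes in part. Which tissue holds a gene's highest mean was not used in the choice. It was kidney for 18 of the 25, while kidney was highest for 16.1% of all tested genes. Heart was highest for 5, muscle for 1, liver for 0 and spleen for 1, beside 21.1% of all tested genes for spleen. The shares of all tested genes for heart and muscle were not counted. The genes of the set move together, so these counts are not separate observations. Of 171 kidney-enriched genes, defined further on, 101 had fitted changes above 0 and 70 below.

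Placebo fish 2 lay between the arms in this set. It was the lowest of the 3 placebo libraries for 23 of the 25 genes, against 36.3% of all tested genes. The choice by p used these same libraries and the genes move together, so the 23 are not separate observations. The median level of placebo fish 2 was 0.552 of the placebo mean, while placebo fish 3 and 4 stood at 1.24 and 1.16. The 5 alendronate fish stood between 0.246 and 0.396 of the placebo mean. The median Pearson r between 2 of the 25 genes over the 8 libraries was 0.876, to which the difference between arms that chose them contributes. Placebo fish 2 was also the placebo fish with the highest share of the 33 spleen and liver genes. Whether this bears on the set was not tested.

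**Figure D4:**
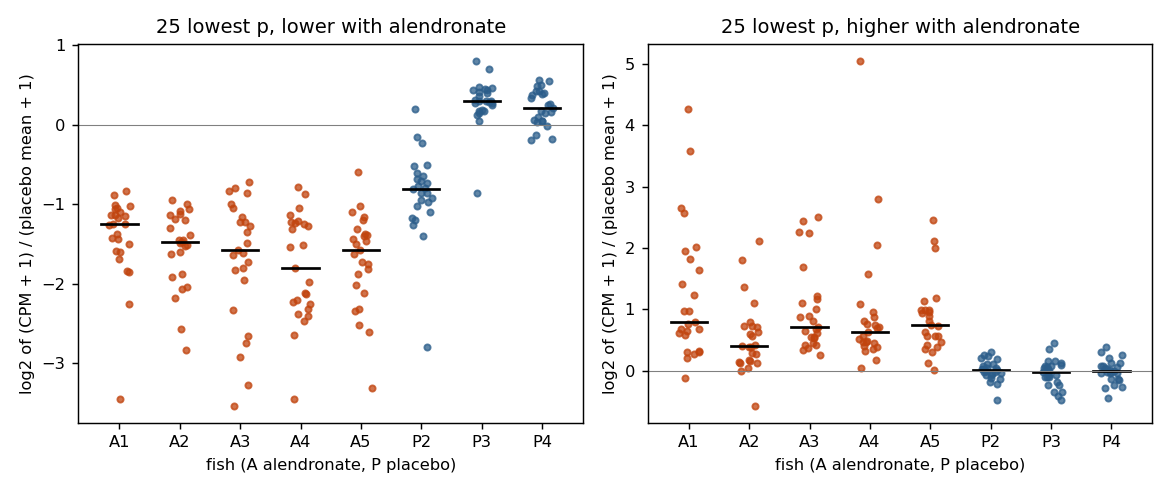
Level of each of 25 genes relative to its placebo mean, as log2 of (CPM + 1) over (placebo mean + 1), in every spleen library, for the 25 smallest p among lower genes (left) and among higher genes (right). Points are genes and black bars are medians. The split between arms follows from the choice of genes, which used P2, P3 and P4 as well. On the left P2 lies below P3 and P4 for 23 of 25 genes, which move together.

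DESeq2 called 10 genes among the 15582 to which it gave an adjusted p (0.0642%), all lower with alendronate. All 10 are among the 25 just described. Their adjusted p in DESeq2 ran from 0.00213 to 0.0499, and their unadjusted p in edgeR from 0.000113 to 0.00120. In all 10 the arms did not overlap, against 0.889% of all genes, which the choice by the same difference fixes in part. In 7 the highest tissue mean was in kidney, against 16.1% of all tested genes. On counts with liver reads removed at the median share, DESeq2 called 22 genes (0.12% of 18281), the 10 included. Without alendronate fish 1 and 3 it called 60 of 16369 genes, 14 higher and 46 lower, with 9 of the 10 among them. Those fits reuse the libraries that chose the 10, so finding them again is not separate support. Limma-voom called 0 genes, with 259 at an unadjusted p under 0.05.

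Among genes higher with alendronate in edgeR, the smallest p belonged to ENSNFUG00015015713, with 31.7, 34.9, 23.2, 34.5 and 71.2 CPM in alendronate fish 1 to 5 and 18.8, 11.1 and 17.3 CPM in placebo fish 2, 3 and 4. All 5 treated fish lay above all 3 placebo fish, and alendronate fish 5 was well above the other treated fish. The means were 39.1 ± 18.5 CPM (SD, n = 5) and 15.7 ± 4.11 CPM (SD, n = 3). The log2 fold change was 1.31 with a standard error of 0.37, or 2.49-fold higher with a 95% interval from 1.39 to 4.45. The edgeR p was 0.00611 before and 1.00 after adjustment. Leaving out alendronate fish 5 gave a log2 change of 1.01. DESeq2 gave an adjusted p of 0.370 over all 8 libraries and of 0.0192 without alendronate fish 1 and 3.

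Outside the spleen, ENSNFUG00015015713 was most abundant in heart. Its mean was 26.8 CPM in heart and 16.1 CPM in spleen on the scale of all 42 libraries, and below 1 CPM in liver, muscle and kidney. In heart it ranged from 23.0 to 35.1 CPM with alendronate and from 22.6 to 33.2 CPM with placebo. The heart groups overlapped almost fully.

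ENSNFUG00015019721 came second among the higher genes and was read sparsely, with 13 to 69 counts per library. Its levels were 3.95, 0.764, 2.17, 1.90 and 1.77 CPM in alendronate fish 1 to 5 and 0.612, 0.464 and 0.660 CPM in placebo fish 2, 3 and 4. The arms did not overlap, though alendronate fish 2 was only just above the placebo fish. The log2 fold change was 1.85 with a standard error of 0.55, at an edgeR p of 0.00766 before and 1.00 after adjustment. Its highest tissue mean was in liver, at 19.5 CPM. Alendronate fish 1 and 3, with the largest liver shares, were also the highest for this gene. On liver-subtracted counts the log2 change was 1.76, and with the liver share as a covariate it was 1.5. Without alendronate fish 1 and 3 it was 1.35.

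The 25 genes with the smallest p among those higher with alendronate had log2 changes from 0.57 to 5.59 and p from 0.00611 to 0.0341. In 15 of them the arms did not overlap, against 0.467% of all genes, a contrast that the choice by p fixes in part. Liver held the highest tissue mean for 12 of the 25, against 24% of all tested genes. Muscle held it for 7, and its share of all tested genes was not counted. Alendronate fish 1, which had the largest liver share, was the highest library for 12 of the 25. Over the genes with a mean of at least 1 CPM, fish 1 was the highest for 22.9%. The choice of genes higher with alendronate fixes this contrast in part. The 2 counts of 12 need not hold the same genes. Of the 25, 6 were liver-enriched, as defined further on, beside 436 of all 17545 tested genes. Whether liver transcripts account for any of the 25 was not tested gene by gene.

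Genes grouped by where they were abundant gave the broader picture. Enrichment in a tissue meant a mean of at least 5 CPM there and at least 10 times the mean of every other tissue. The tissue means include the spleen libraries compared here, so high levels in a single library can bring genes into a group. For the 44 spleen-enriched genes the median log2 fold change was 0.04, with 24 above and 20 below 0, beside 0.02 over all tested genes, of which 53% were above 0. Leaving out placebo fish 2 moved the median to 0.29, leaving out alendronate fish 1 to 0.14 and leaving out placebo fish 4 to -0.09. An unadjusted p under 0.05 was found for 0 of the 44, beside 1.62% of all genes, a share at which a group of this size could well hold none. Their share of counts was 0.620% in alendronate fish 1, 0.888% in fish 2, 0.844% in fish 3, 1.00% in fish 4 and 1.27% in fish 5. In placebo fish 2, 3 and 4 it was 1.01%, 0.972% and 0.929%. The placebo values lay inside the range of the treated fish.

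For the liver-enriched genes the median was 1.54, with 423 of 436 above 0 and 19 at an unadjusted p under 0.05 (4.36%, beside 1.62% of all genes). The median was 0.75 without alendronate fish 1, and -0.06 without alendronate fish 1 and 3, with 183 of 401 above 0. On liver-subtracted counts it was -0.003 over the 255 genes that still passed the filter. With the median ratio as the share it was 0.14 over 291 genes. The subtraction sets markers near 0 by its construction, so these values describe how much of the pattern the estimated share takes up.

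With all 8 libraries, genes shared by spleen and kidney mostly had fitted changes below 0. The amounts depended on single libraries, and so did the direction of the median at 5 times the other tissues. At 10 times the other tissues there were 9 such genes, with a median log2 change of -1.08. Of these, 7 were below 0 and 4 had an unadjusted p under 0.05, all lower, beside 1.23% of all genes. The median was -0.64 without placebo fish 2 and -0.69 without alendronate fish 1 and 3. They took 0.0226%, 0.0593%, 0.0523%, 0.0759% and 0.108% of counts in alendronate fish 1 to 5 and 0.110%, 0.0812% and 0.0977% in placebo fish 2, 3 and 4. Alendronate fish 1 was the lowest, and alendronate fish 5 lay within the placebo range.

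At 5 times the other tissues the group held 138 genes, of which 126 were below 0, beside 47% of all tested genes. Membership drew on the same spleen libraries with both arms weighted equally, so 1 placebo library weighed more than 1 alendronate library. The median log2 change was -0.35, but without placebo fish 4 it was 0.009, so it rested on that library. With all 8 libraries, 18 genes had an unadjusted p under 0.05, all lower, or 13.0% of the group beside 1.62% of all genes. By library the arms overlapped. These genes took 1.48%, 0.734%, 1.71%, 0.982% and 1.17% of counts in alendronate fish 1 to 5. In placebo fish 2, 3 and 4 they took 1.06%, 1.48% and 2.37%. Placebo fish 4 was the highest and alendronate fish 2 the lowest, while alendronate fish 1 and 3, with the most liver transcripts, were at or above placebo fish 3. Without alendronate fish 1 and 3 the median was -0.79, and 129 of 138 were below 0. With the liver share as a covariate it was -0.58, and without placebo fish 2 it was -0.54. On liver-subtracted counts it was -0.29 with 118 below 0. The genes move together within a library, so their count does not measure how many fish bear the pattern.

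The remaining groups had medians between -0.05 and 0.13. The median was -0.05 for 75 heart-enriched genes, 0.001 for 193 muscle-enriched genes, 0.13 for 171 kidney-enriched genes and -0.01 for 2610 evenly expressed genes. Evenly expressed genes had means of at least 5 CPM in every tissue within a 2-fold range. An unadjusted p under 0.05 in edgeR was found for 3 of those 2610 (0.115%, beside 1.62% of all tested genes). All 3 were lower, and among all tested genes 215 were lower and 70 higher. Without placebo fish 2 the heart-enriched median was 0.22 and the kidney-enriched median 0.31.

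**Figure D5:**
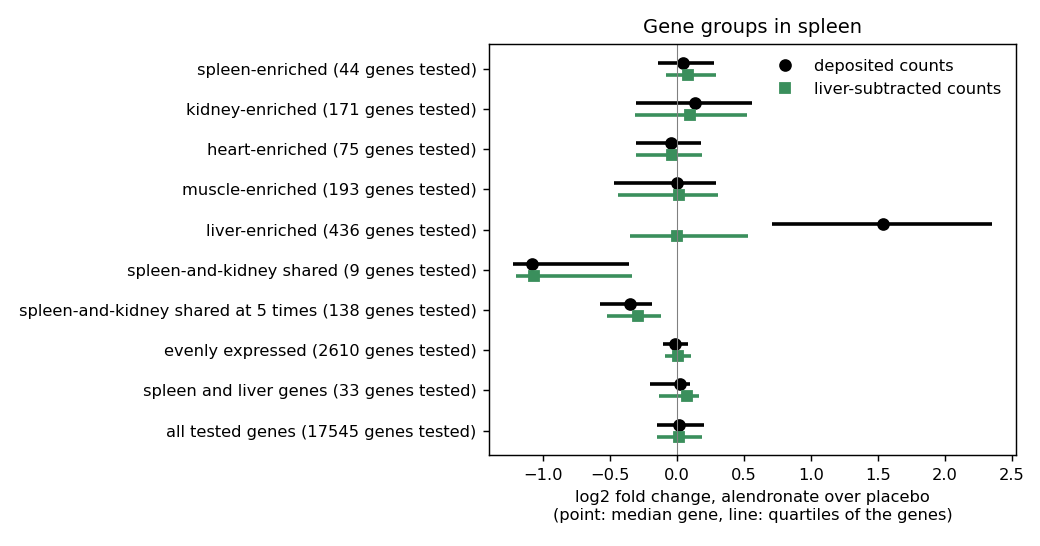
Log2 fold change of alendronate over placebo in spleen for gene groups defined by tissue levels, from deposited counts (black) and from liver-subtracted counts (green). Points are the median gene and lines span the quartiles of the genes, not an error over fish. The liver-enriched median lies at 1.54 before and at -0.003 after subtraction, and the genes shared by spleen and kidney at 5 times the other tissues lie at -0.35 and -0.29, from all 8 libraries (0.009 on deposited counts without P4).

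The precision set by 5 against 3 fish depended on the level of the gene. For 54.6% of tested genes the whole 95% interval was inside 2-fold either way. With the genes split by spleen level into 4 equal classes, this held for 8.09% of the lowest class, which reached 3.83 CPM, and for 75.6% of the highest, which began at 42.9 CPM. It held for 93.9% of evenly expressed genes, 40.9% of spleen-enriched genes and 5.73% of liver-enriched genes. The median standard error of a log2 change was 0.33. It was 0.30 without alendronate fish 1 and 0.33 on liver-subtracted counts. The absence of calls is not a sign that levels were equal.

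The effect in spleen was not found to differ from that in the other tissues for any gene. The spleen effect was set against the mean effect in heart, liver, muscle and kidney in 1 edgeR fit of all 42 libraries. That fit, which gave the values below, treated libraries of the same fish as independent. A fit blocked by fish also called 0 genes. Of 20892 genes, 0 were called (0%). The smallest adjusted p in edgeR was 0.296, and 577 genes had an unadjusted p under 0.05, where uniform p-values would give 1045. For ENSNFUG00015019412 the spleen change minus the mean of the other tissues was -1.21 on the log2 scale with a standard error of 0.40 (edgeR adjusted p = 1.00). For ENSNFUG00015012795 the value was -1.92 with a standard error of 0.57 (edgeR adjusted p = 0.898). Both genes were chosen by their change in these same spleen libraries, which can push these differences away from 0. DESeq2 was not run for this comparison.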

How the data were processed

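The members and gene groups were chosen with earlier results of these data known. The deposited values are raw, unnormalized counts for Ensembl gene IDs, as their whole numbers and unequal totals show. Per the submitters' processing notes, the tools included STAR 2.7.10b, SAMtools 1.13, Trim Galore 0.6.10, CASAVA, MultiQC 1.28, FastQC 0.12.1 and bcl2fastq, in no stated order. The counting program, strand setting and genome build are not stated there, so overlapping genes and near-identical copies are uncertain. Of 42 columns, 0 belonged to no sample and 0 pairs were identical, and 0 rows named no gene.

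Arms were compared in the 8 spleen libraries with edgeR 4.0.16 in R 4.3.3 (filterByExpr, TMM scaling, robust quasi-likelihood F test, two-sided, Benjamini-Hochberg over all tested genes, threshold 0.05). Standard errors came from the same fits. DESeq2 1.42.0 and limma 3.58.1 (voom) were alternatives. Of the 25475 genes, DESeq2 left 9893 without an adjusted p. Tissue groups used CPM with TMM factors over all 42 libraries, both arms weighted equally. Shares of counts and the liver markers used plain CPM. Liver-subtracted counts are spleen counts minus the liver share times the same fish's liver profile, rounded and set to at least 0, so they are no longer raw counts. Named genes were to be the 12 smallest p in each direction at a mean of at least 1 CPM. Where IDs have no names, the rule names 2 in each direction, and the 25 smallest are described as a set. The edgeR step and the share estimate were tested on simulated data. The simulated counts varied less between libraries than the real ones, and the liver markers were set to 0 in the spleen profile before mixing. These checks therefore do not measure power or bias in the real data. Exact tests used scipy 1.17.1. The labels mention no molecular identifiers.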

Additional observations from a re-analysis of the deposited data

Results flagged for a closer look

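In 14 values compared over the 5 alendronate libraries, 4 had a highest or lowest library that Dixon's test set apart, where chance gives about 1 in 20, or 0.7. Those of 1 fish are not separate events. Alendronate fish 1 was the end library in 3 of them. The 33 spleen and liver genes took 7.77% of its counts, and the next library had 1.92%. Evenly expressed genes took 12.0% of its counts, the lowest of the arm. ENSNFUG00015012795 stood at 10.4 CPM in it, and the next library had 4.85 CPM. Alendronate fish 5 was the end library for ENSNFUG00015015713, at 71.2 CPM against 34.9 CPM in the next. The 3 placebo libraries are too few for this test.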

How the results depend on the processing

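The count of called genes stayed at 0 in edgeR with RLE scaling, without a filter, with liver-subtracted counts, with the liver share as a covariate, without the liver markers, without alendronate fish 1 and 3, in 1 fit of all 42 libraries and in all 8 fits that left out 1 library (from 0 to 0), and in limma-voom. It was 10 in DESeq2. Settings chosen after seeing the data gave 22 in DESeq2 on liver-subtracted counts with the median share (7 higher, of which 5 were liver-enriched, and 15 lower), 60 in DESeq2 without alendronate fish 1 and 3, 0 in edgeR on liver-subtracted counts with the median share, and 1 in edgeR without alendronate fish 1 and placebo fish 2. That gene was ENSNFUG00015012795, lower with alendronate. The cause of these differences was not tested. The number at an unadjusted p under 0.05 was 285 in edgeR, from 211 to 456 when leaving out 1 library (the highest leaving out alendronate fish 2, then placebo fish 2 at 453 and alendronate fish 1 at 436), and 1129 without alendronate fish 1 and 3. Uniform p-values would give 877 in the main fit and 858 without alendronate fish 1 and 3.

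With the number in the label as a replicate block, edgeR called 0 genes, with 336 at an unadjusted p under 0.05. Equal numbers mark different fish. Libraries of equal number correlated at 0.27, 0.16 and -0.21 after removal of arm means, and the value for different numbers was -0.02. So few pairs cannot show whether fish of equal number shared a tank or batch. In the comparison with other tissues, where 1 fish gave several libraries, the replicate block by fish called 0 genes. Liver-subtracted counts gave 0, and leaving out 1 spleen library gave 0 to 1. The 1 gene, ENSNFUG00015012343, was called without placebo fish 3 (edgeR adjusted p = 0.0408). Its spleen change minus the mean change of the other tissues was -2.80 on the log2 scale. It was chosen after its values were seen.

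The difference in liver share ran from 1.52 to 6.14 percentage points when leaving out 1 library and from 1.25 to 4.19 over the other estimates, with exact permutation p from 0.257 to 0.911. The lowest, 1.25, left out the 10 most abundant markers. The directions of the 4 genes given by ID in the comparison of arms were the same in every alternative. Their arms did not overlap and the genes were chosen by p in these libraries, so this was largely fixed beforehand. How far depth limits the precision was not tested. The whole interval of the change lay inside 2-fold either way for 8.09% of genes in the class lowest in spleen. It did so for 75.6% of the highest class, but for 0% of the 33 spleen and liver genes, whose median level was 318 CPM.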
